A study of Mus musculus with 6 samples.

Results

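The genes described here encode the myeloid colony-stimulating factors and their receptors: the ligand genes Csf1 and Il34 and the receptor genes Csf1r, Csf2ra, Csf2rb, Csf2rb2 and Csf3r. They were taken by symbol, and all 7 were found among the 24421 gene symbols of the count table. RNA had been sequenced from 6 mouse neurofibromas, benign nerve sheath tumours, on a C57BL/6J background. Every tumour was Nf1 fl/fl with DhhCre. The Dhh promoter drives Cre in Schwann cell precursors and their progeny, which lose Nf1, and the other cells of the tumour, myeloid cells included, keep it. In the group named miR155KO_Nf1KO (tumours MiRNC149, MiRNC640 and MiRNC670) the labels add a knockout of the microRNA miR-155. In the group Nf1KO (tumours Nf803, Nf809 and Nf827) they give only the loss of Nf1. The labels state no drug treatment and no age, and do not say in which cells miR-155 was lost. Nor do they tie each tumour to its own mouse, so the p-values reflect only how much these samples vary, part of which may be technical. The study asked which genes miR-155 may target.

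Colony-stimulating factors are secreted proteins that let myeloid cells survive, divide and mature. CSF-1 and interleukin-34 are separate ligands of a single receptor tyrosine kinase, the product of Csf1r, on which most tissue macrophages depend. GM-CSF acts through an alpha chain (Csf2ra) paired with the common beta chain (Csf2rb), which interleukin-3 and interleukin-5 receptors also use. Mice carry a second beta chain gene, Csf2rb2, whose product serves interleukin-3. G-CSF acts through the product of Csf3r, best known from neutrophils and their precursors. Macrophages are a main immune cell of neurofibromas. The mature strand of the microRNA that separates the groups is shown because the search for its sites rests on it (RefSeq, GRCm38.p6, chromosome 16, 84714143 to 84714165, plus strand), with the seed, bases 2 to 8, in capitals.
miR-155-5p: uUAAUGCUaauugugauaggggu

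Column totals ran from 13061129 to 16333181 reads. Levels are CPM, reads per 1000000 of the TMM-scaled library. The edgeR quasi-likelihood test was run on 15604 genes, and those with a Benjamini-Hochberg adjusted p under 0.05 count as called. Mir155hg, the host transcript of miR-155, had 5, 3 and 1 reads in MiRNC149, MiRNC640 and MiRNC670 and 57, 66 and 71 in Nf803, Nf809 and Nf827, so each library matched its label. Nf1, which both groups lose in part of their cells, had 341 ± 43.3 and 324 ± 33.2 CPM (SD, n = 3 each). Sex, read from Xist and Y-linked counts, was female in MiRNC149, Nf803 and Nf827 and male in the other tumours. Each group thus came from more than 1 mouse, though tumours of the same sex may share one. Skeletal muscle genes were high in MiRNC670 and Nf809, with summed levels of 1764 and 1521 CPM against 4.28 to 276 CPM elsewhere. Adipocyte markers varied as well, and summed to 80.7, 1937 and 525 CPM in MiRNC149, MiRNC640 and MiRNC670. In Nf803, Nf809 and Nf827 they summed to 296, 29.1 and 242 CPM. Markers of Schwann cells, the cell type of the labelled tumour, were present in every tumour, and their summed level was 3936 to 5915 CPM.

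All 7 genes had a lower mean level without miR-155, and 2 of them, Csf1r and Csf3r, were called lower. None was called higher. Among all tested genes 4.74% were called lower and 5.22% higher. The CPM ranges of the groups did not overlap for 4 of the 7 genes (Csf1, Csf1r, Csf2ra and Csf3r), against 32.6% of all tested genes. The median log2 fold change of the 7 was -0.98, beside 0.00684 over all tested genes. In bulk RNA from a tumour, fewer cells of a type and less RNA per cell cannot be told apart, and this holds for each result here.

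**Figure D1:**
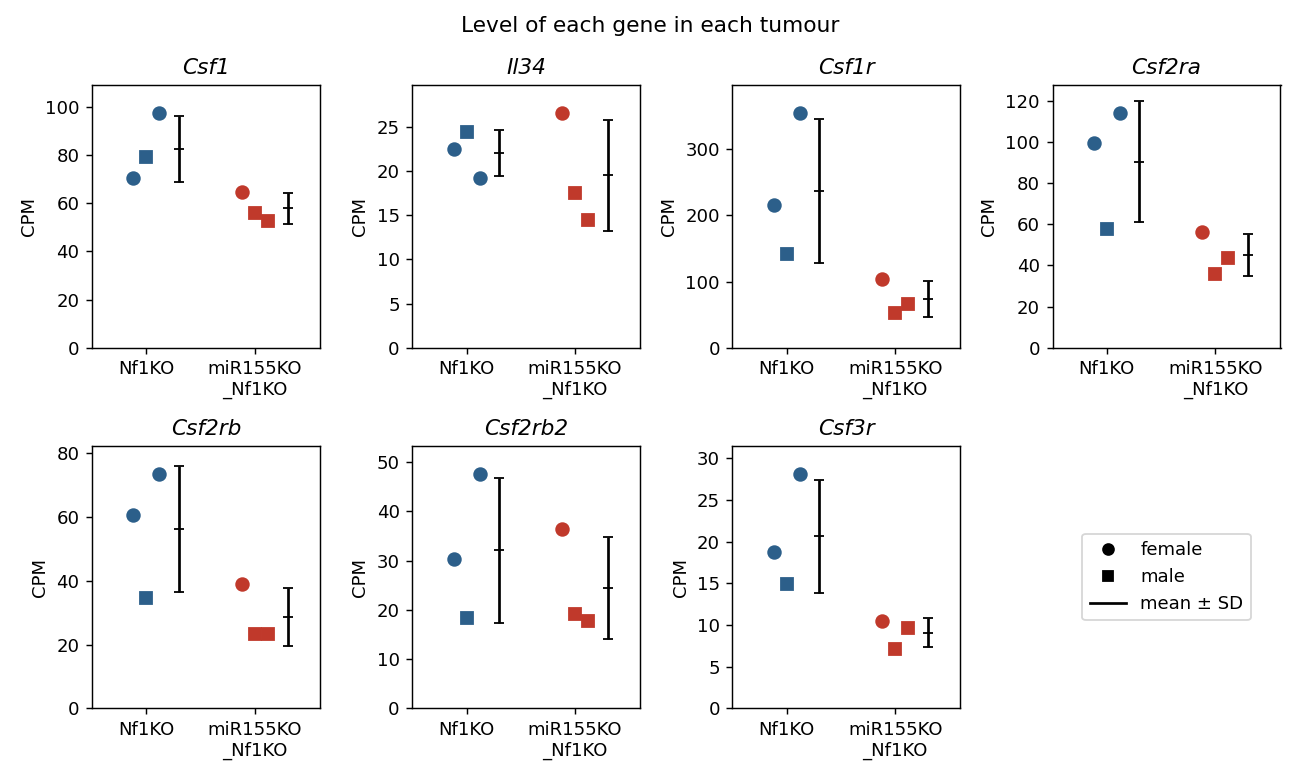
Level of each gene in CPM (y axis, from 0) in the 3 tumours of each group (x axis); circles are female and squares male tumours, and the bar beside them is mean ± SD. For Csf1r the miR155KO_Nf1KO tumours lie between 51.9 and 104 CPM and the Nf1KO tumours between 141 and 355 CPM, while the groups overlap for Il34, Csf2rb and Csf2rb2.

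Of the ligands, Csf1 was somewhat lower without miR-155 in every tumour, and Il34 showed no shift. Csf1 (ENSMUSG00000014599.10, GRCm38 chromosome 3, 107741048 to 107760469, minus strand) stood at 64.9, 56.1 and 52.7 CPM in MiRNC149, MiRNC640 and MiRNC670. It stood at 70.7, 79.3 and 97.5 CPM in Nf803, Nf809 and Nf827. The groups did not overlap, but the nearest tumours, MiRNC149 and Nf803, differed by little. The means were 57.9 ± 6.28 and 82.5 ± 13.7 CPM (SD, n = 3 each), a log2 fold change of -0.51 (SE 0.16) that missed the threshold (edgeR adjusted p = 0.0942). DESeq2 did call it (adjusted p = 0.0456).

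Il34 (ENSMUSG00000031750.15, chromosome 8, 110741829 to 110805924, minus strand) was read at 26.6, 17.5 and 14.5 CPM in MiRNC149, MiRNC640 and MiRNC670. Its levels in Nf803, Nf809 and Nf827 were 22.5, 24.5 and 19.3 CPM. The highest and the lowest of the 6 values both belonged to miR155KO_Nf1KO. The log2 fold change was -0.18 (edgeR adjusted p = 0.711), and its 95% interval of -0.76 to 0.41 leaves room for a change in either direction. By sex the tumours pointed opposite ways. The female MiRNC149 was above both female Nf1KO tumours, and the male MiRNC640 and MiRNC670 were below the male Nf809. Within tumours the log2 ratio of Il34 to Csf1 was -1.60 ± 0.29 without miR-155 and -1.89 ± 0.38 with it (SD, n = 3 each; exact two-sided permutation p = 0.5), a difference of 0.29 that was less than the spread between tumours.

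Of the other ligands, Csf2, Csf3 and Il3 were close to absent, and Il5 is given below. Csf2, which encodes GM-CSF, had 1 read in Nf827 and 0 in the other 5 tumours, and Csf3, which encodes G-CSF, had 2 reads in MiRNC670 and 0 elsewhere. A count of 0 allows up to 0.185 to 0.238 CPM in these libraries, taking 3 counts as the limit and counting error only. Il3 had 0 reads in all 6 tumours. Transcripts of the receptors for GM-CSF and G-CSF were thus read in every tumour, while those of the ligands were at or below that limit.

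The receptor gene Csf1r had the largest change of the 7. Csf1r (ENSMUSG00000024621.16, chromosome 18, 61100598 to 61132149, plus strand) had 104, 51.9 and 66.2 CPM in MiRNC149, MiRNC640 and MiRNC670, and 215, 141 and 355 CPM in Nf803, Nf809 and Nf827. All 3 tumours without miR-155 were below all 3 with it, and Nf827 alone was well above the other Nf1KO tumours. The means were 74.0 ± 26.9 and 237 ± 108 CPM (SD, n = 3 each). Csf1r fell by 1.68 on the log2 scale (SE 0.38, edgeR adjusted p = 0.0390), a level 3.20-fold lower. The order held within each sex: MiRNC149 was below the female Nf803 and Nf827, and MiRNC640 and MiRNC670 were below the male Nf809. The call was lost without MiRNC640 (adjusted p = 0.107), MiRNC670 (0.140), Nf803 (0.105) or Nf827 (0.0983), or without both MiRNC670 and Nf809 (0.0545). Exons of Csf1r overlap those of Hmgxb3 on the other strand over 873 bases, where reads of the 2 genes may not be told apart, and Hmgxb3 had a log2 fold change of -0.06.

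Macrophage markers were lower along with Csf1r, and their part in its change was not tested. Of 14 macrophage markers, all tested, 4 were called lower (Adgre1, Fcgr1, C1qb and Mrc1) and none higher by edgeR, 13 had a negative log2 fold change, and the median was -1.56. Their summed level was 463 to 1005 CPM without miR-155 and 973 to 1518 CPM with it, and none of the 14 was at 0. Adgre1, which encodes F4/80, had 21.7 ± 9.21 against 88.1 ± 30.6 CPM (SD, n = 3 each), and the mannose receptor gene Mrc1 had 79.4 ± 25.4 against 222 ± 61.8 CPM. Lyz2 had 217 ± 123 against 283 ± 25.9 CPM, and Mertk had 152 ± 74.9 against 117 ± 32.2 CPM (SD, n = 3 each). Their ranges overlapped and neither was called (log2 fold changes -0.38 and 0.38). In MiRNC149, with the summed level of 1005 CPM, Lyz2 had 359 and Mertk 238 CPM. The log2 ratio of Csf1r to the mean of these markers was 2.001 ± 0.153 without miR-155 and 2.26 ± 0.259 with it (SD, n = 3 each). That difference of -0.26 gave an exact permutation p of 0.2 (two-sided, 0.35 adjusted over 7 ratios), where 3 against 3 can give no less than 0.1. The design could not have passed a threshold of 0.05 for a ratio of any size.

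Csf1r was the member of the axis with a match to the miR-155 seed in its longest annotated 3′ UTR, and the part of that match in its change was not tested. The site sought was AGCATTAA, the complement of seed bases 2 to 8 followed by A, on the transcript strand in GENCODE M21. It occurred 1 time in the 1669 bases of Csf1r, starting at base 643. None of the other 6 genes had it there, nor its parts AGCATTA or GCATTAA. The same 8 bases are found in 3.51% of the 14035 tested genes with a 3′ UTR. Of those 493 genes 7.51% were called higher and 4.67% lower, beside 5.22% and 4.74% of all tested genes. Csf1r is among the genes with the site that were called lower. A match is a description of the letters and does not show that the microRNA binds there.

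**Figure D2:**
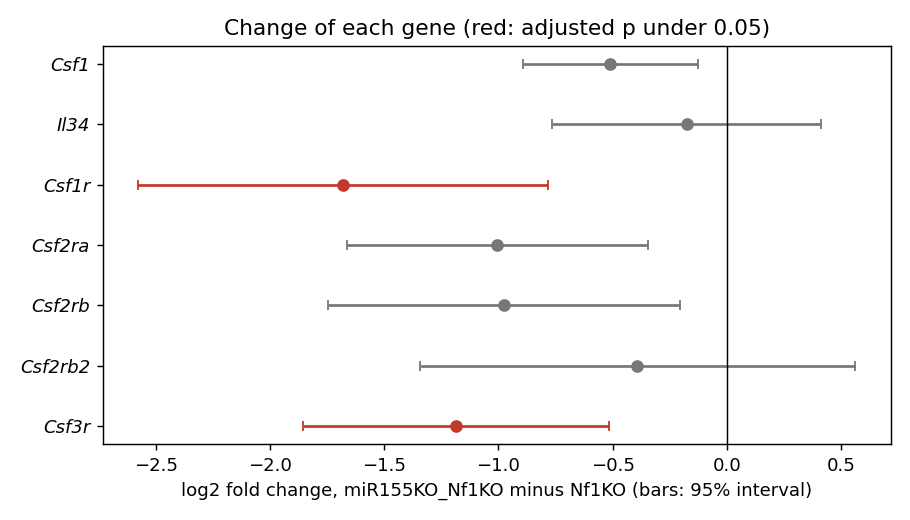
Log2 fold change of each gene, miR155KO_Nf1KO minus Nf1KO (x axis), from edgeR with its 95% interval; red marks an adjusted p under 0.05. All 7 points lie below 0, from -1.68 for Csf1r to -0.18 for Il34, and the intervals of Il34 and Csf2rb2 cross 0.

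The alpha chain of the GM-CSF receptor was about 2.01-fold lower without miR-155 but was not called. Csf2ra (ENSMUSG00000059326.7, chromosome 19, 61223957 to 61228429, minus strand) stood at 56.0, 35.8 and 43.5 CPM in MiRNC149, MiRNC640 and MiRNC670. Nf803 and Nf827 had 99.7 and 114 CPM, whereas Nf809 had 57.7 CPM, close above MiRNC149. The means were 45.1 ± 10.2 and 90.5 ± 29.3 CPM (SD, n = 3 each), with a log2 fold change of -1.005 (SE 0.28, edgeR adjusted p = 0.0658). The gene was called by DESeq2 (adjusted p = 0.00702), without Nf809 (edgeR, 0.0104) and without both MiRNC670 and Nf809 (edgeR, 0.0468).

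The beta chain genes parted from each other. Csf2rb (ENSMUSG00000071713.6, chromosome 15, 78325752 to 78353847, plus strand) had 39.1, 23.2 and 23.4 CPM in MiRNC149, MiRNC640 and MiRNC670 and 60.7, 34.6 and 73.6 CPM in Nf803, Nf809 and Nf827. The groups overlapped, as the male Nf809 was below the female MiRNC149, while the other tumours lay apart. Within each sex they did not overlap: 39.1 against 60.7 and 73.6 CPM in females, and 23.2 and 23.4 against 34.6 CPM in males. The log2 fold change was -0.98 (SE 0.33, edgeR adjusted p = 0.107). It was called by DESeq2 (0.0263) and without Nf809 (edgeR, 0.0260), but not with sex as a covariate (edgeR, 0.0583). Csf2rb2 (ENSMUSG00000071714.7, chromosome 15, 78282507 to 78305721, minus strand) had 36.3, 19.2 and 17.7 CPM without miR-155 and 30.3, 18.4 and 47.6 CPM with it, in the same order of tumours. These ranges overlapped widely. Its log2 fold change was -0.39, with a 95% interval of -1.34 to 0.56 (edgeR adjusted p = 0.598), and it was 0.0051 without Nf827.

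Csf2rb and Csf2rb2 are close copies that lie next to each other, so their counts are uncertain. Their coding sequences are 2688 and 2634 bases long and 95.24% identical over 2628 aligned pairs. Of all stretches of 75 bases in the Csf2rb transcript, 10.7% also occur in Csf2rb2, and 18.4% of stretches of 50 bases do. The window of 90 coding bases with the most differences is printed to show what separates the genes (GENCODE M21 transcripts, coding bases 308 to 397 and 311 to 400), with the 16 differing bases in capitals.
Csf2rb: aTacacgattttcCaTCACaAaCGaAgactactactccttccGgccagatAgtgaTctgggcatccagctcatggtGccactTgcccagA
Csf2rb2: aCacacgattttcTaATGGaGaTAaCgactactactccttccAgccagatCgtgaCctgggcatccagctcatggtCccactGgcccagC

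The share of beta chain reads that went to Csf2rb was lower in every tumour without miR-155. It was 51.9% of 1172 reads in MiRNC149 (95% exact Clopper-Pearson interval 49 to 54.8), 54.8% of 628 in MiRNC640 (50.8 to 58.7) and 56.8% of 519 in MiRNC670 (52.5 to 61.1). In Nf803 it was 66.7% of 1253 reads (64 to 69.3), in Nf809 65.3% of 857 (62.1 to 68.5) and in Nf827 60.7% of 1810 (58.4 to 63). The intervals cover counting error only, and those of MiRNC640 and MiRNC670 overlap that of Nf827. The log2 ratio of Csf2rb to Csf2rb2 was 0.26 ± 0.14 against 0.85 ± 0.19 (SD, n = 3 each), with no overlap and an exact two-sided permutation p of 0.1, the smallest that 3 against 3 can give. This ratio was chosen after the values of both genes were seen. The sum of both genes had a log2 fold change of -0.74 (edgeR adjusted p = 0.233).

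**Figure D3:**
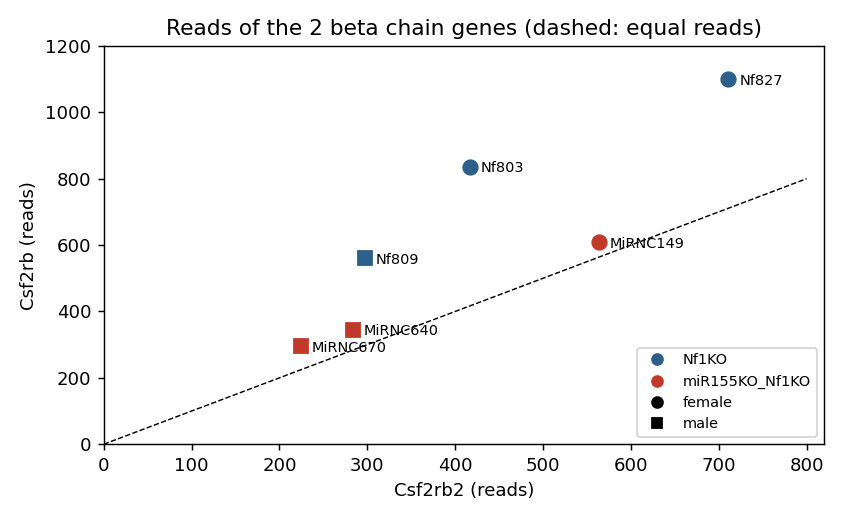
Reads of Csf2rb (y axis) against reads of Csf2rb2 (x axis) in each tumour, with the dashed line at equal reads; colours are groups, circles female and squares male. The 3 miR155KO_Nf1KO tumours lie near the line, at 51.9% to 56.8% Csf2rb, and the 3 Nf1KO tumours above it, at 60.7% to 66.7%.

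Csf3r, the G-CSF receptor gene, was the other gene of the axis called lower. Csf3r (ENSMUSG00000028859.14, chromosome 4, 126024550 to 126044440, plus strand) was at 10.4, 7.09 and 9.66 CPM in MiRNC149, MiRNC640 and MiRNC670 and at 18.8, 14.96 and 28.1 CPM in Nf803, Nf809 and Nf827. The groups did not overlap, overall or within either sex. The means were 9.06 ± 1.75 and 20.6 ± 6.77 CPM (SD, n = 3 each), and Csf3r fell by 1.19 on the log2 scale (SE 0.29, edgeR adjusted p = 0.0444), 2.27-fold. The call was kept without Nf809 (0.0194) and lost without MiRNC149 (0.0647), MiRNC640 (0.126), MiRNC670 (0.133), Nf803 (0.113) or Nf827 (0.124). It was also lost with sex as a covariate (0.0759), in limma voom (0.0602) and without both MiRNC670 and Nf809 (0.0620).

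Neutrophil markers differed in how they ran across the tumours, and their part in the change of Csf3r was not tested. Their summed level was 12.1 to 68.2 CPM without miR-155 and 19.4 to 190 CPM with it, and 0 of 9 tested were called by edgeR (2 of the 12 listed were too low to test and Ly6g had no row). Of these 9, 7 were highest in Nf809, the Nf1KO tumour with the least Csf3r, and none in Nf827, the tumour with the most. S100a8, which encodes a subunit of calprotectin, had 3 reads in Nf827 and 375 in Nf809, and Ngp and Ltf, genes of granule proteins, had 4 and 0 reads against 676 and 165. Retnlg and Mmp9 were higher in all 3 Nf1KO tumours, like Csf3r. Retnlg had 25, 13 and 43 reads in MiRNC149, MiRNC640 and MiRNC670 and 332, 94 and 120 in Nf803, Nf809 and Nf827 (log2 fold change -2.69, edgeR adjusted p = 0.0546), and Mmp9, which encodes a matrix protease, had a log2 fold change of -1.26 (edgeR adjusted p = 0.150). The log2 ratio of Csf3r to the neutrophil markers ranged from -0.08 in Nf809 to 4.91 in Nf827. Its group difference was -0.63, with an exact permutation p of 0.8, and it turned to 0.53 without Nf827. Against the macrophage markers the log2 ratio of Csf3r was -0.97 ± 0.43 without miR-155 and -1.20 ± 0.11 with it (SD, n = 3 each; exact permutation p = 0.5).

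Stretches of 30 bases from RefSeq promoters show GAGGAA, the core letters of sites for PU.1, a myeloid transcription factor encoded by Spi1. Spi1 was called lower, and its part in the levels of these genes was not tested. The stretches are from Csf3r and Csf2ra, the receptor genes searched that held GAGGAA on their own strand. Every GAGGAA is in capitals (GRCm38.p6, chromosome 4, 126024564 to 126024593, plus strand, and chromosome 19, 61228412 to 61228441, minus strand).
Csf3r: ccttcctgaGAGGAAggggctgtctatgtc
Csf2ra: cctgcagatGAGGAAGAGGAAgcgggagac
The first GAGGAA begins 86 bases before the RefSeq start of Csf3r and 14 bases before that of Csf2ra, where a second follows it directly. The GENCODE M21 gene bounds given above differ: Csf3r begins upstream of its printed stretch there, and Csf2ra begins within its own. The window searched ran from 250 bases before to 50 after the start, on both strands. Of the 4 genes of the axis in the promoter table, Csf2rb2 had 2 matches on the reverse strand and Csf1 had none. Csf1r, Il34 and Csf2rb had no promoter there and were not searched. Of all 32851 promoters in the table, 28.3% hold these letters on either strand, and binding was not measured.

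Per kilobase of annotated exon, so that genes can be set beside each other, Csf1r led in Nf1KO at 41.1 ± 18.8 CPM per kilobase (SD, n = 3). It was followed by Csf2ra at 31.5 ± 10.2, Csf1 at 15.6 ± 2.60, Il34 at 11.3 ± 1.34, Csf2rb at 7.74 ± 2.73, Csf2rb2 at 6.77 ± 3.10 and Csf3r at 5.72 ± 1.88 CPM per kilobase. Csf1r and Csf2ra overlapped in range, as did Il34 and Csf2rb, Csf2rb and Csf2rb2, and Csf2rb2 and Csf3r, while Csf2ra lay above Csf1 and Csf1 above Il34 in all 3 tumours. In miR155KO_Nf1KO, Csf2ra stood first at 15.7 ± 3.55 CPM per kilobase, before Csf1r at 12.8 ± 4.66, Csf1 at 10.96 ± 1.19, Il34 at 9.97 ± 3.22, Csf2rb2 at 5.15 ± 2.18, Csf2rb at 3.93 ± 1.26 and Csf3r at 2.51 ± 0.48. Each neighbour in that order overlapped the next except that Csf3r was below Csf2rb in every tumour. In each Nf1KO tumour Csf1r was above Csf2ra, and in each miR155KO_Nf1KO tumour below it. Where that line falls depends on the annotated exon lengths, 5774 and 2871 bases. The log2 ratio of Csf1r to Csf2ra, from CPM without length, was 0.68 ± 0.19 against 1.35 ± 0.27 (SD, n = 3 each), without overlap (exact permutation p = 0.1, the smallest that this design can give). It too was chosen after the values were seen.

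Set against the macrophage markers, the beta chain genes stood higher in the tumours without miR-155, though their own mean levels were lower there. Their log2 fold changes were -0.98 (Csf2rb) and -0.39 (Csf2rb2), beside a median of -1.56 for the markers. The log2 ratio of Csf2rb2 to the marker mean was 0.39 ± 0.14 against -0.62 ± 0.27 (SD, n = 3 each), and that of Csf2rb 0.65 ± 0.18 against 0.22 ± 0.18. For both the groups did not overlap, with an exact two-sided permutation p of 0.1, the smallest possible (0.35 adjusted over 7 ratios). For Csf2ra the ratio was 1.32 ± 0.31 against 0.92 ± 0.16, with an overlap (p = 0.2 by the exact permutation test). None of the 7 ratios in the design could reach an unadjusted p under 0.05.

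**Figure D4:**
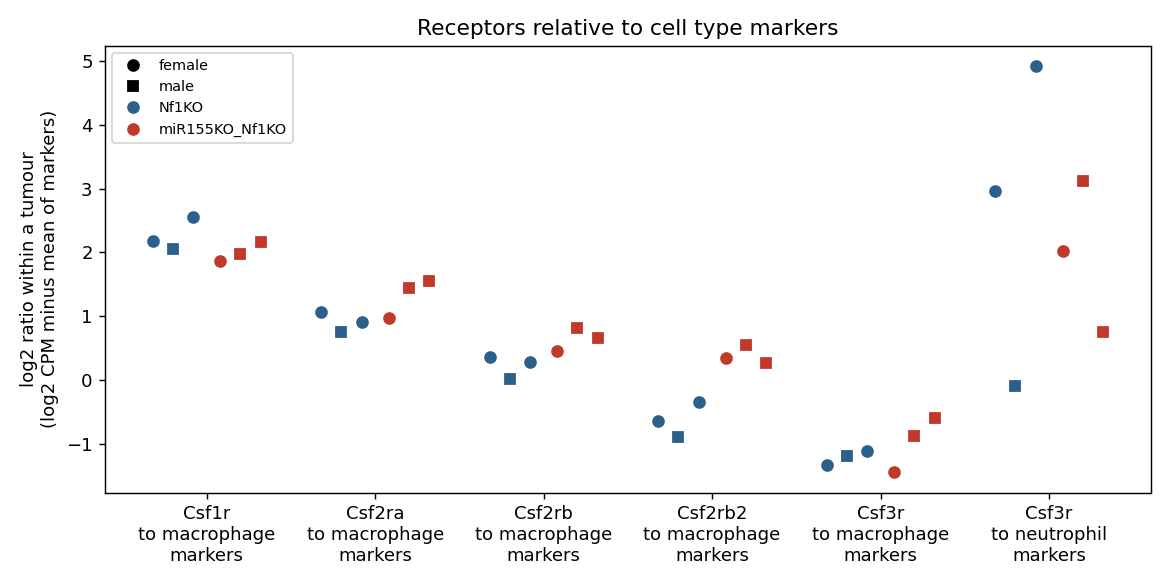
Log2 CPM of each receptor gene minus the mean log2 CPM of the macrophage or neutrophil markers (y axis) in each tumour; colours are groups, circles female and squares male. The groups lie apart for Csf2rb2 (0.27 to 0.55 against -0.89 to -0.35) and spread from -0.08 to 4.91 for Csf3r against neutrophil markers.

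The profile of each gene over the 6 tumours was compared with those of 12976 other genes by the root-mean-square difference of centred log2 CPM, which is small when 2 profiles run alike. The nearest to Csf1r were Plek (0.08 log2 units), which encodes the phagocyte protein pleckstrin, Cyth4 (0.09) and Runx3 (0.12). Plek and Runx3 were called lower (log2 fold changes -1.78 and -1.86). For Csf3r they were Cyp4f16 (0.03), Dck (0.09) and Fmnl1 (0.10). Csf2rb had another gene of the axis, its partner chain Csf2ra, as nearest of all (0.12), before Prex1 (0.13) and Prcp (0.14). Csf2ra had Trerf1 (0.05), Tgfbr1 (0.09) and Pvt1 (0.11). The nearest to Csf1 were the ribosomal protein genes Rps18 (0.02) and Rpl13a (0.05), then Ddx56 (0.06). Those to Il34 were Gpatch1 (0.07), Ddb2 (0.07) and Arl6ip6 (0.08), and those to Csf2rb2 were Vmn1r181 (0.09), Zfp963 (0.16) and D11Wsu47e (0.16). Csf2rb2 differed from Csf2rb by 0.32 and from Csf2ra by 0.39. Among the 21 pairs within the axis the largest difference was 0.88, between Csf1r and Il34.

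Signalling genes below the receptors were lower in part. Of 30 tested genes of that list (32 listed), 13 were called lower and none higher, with a median log2 fold change of -0.77. The adaptor gene Tyrobp, which encodes DAP12, had 12.998 ± 7.11 against 45.0 ± 17.3 CPM (SD, n = 3 each), and the adaptor gene Fyb had 47.5 ± 28.8 against 190 ± 68.8 CPM. The Src family kinase genes Fgr and Lyn had log2 fold changes of -2.84 and -1.65. Those of Plcg2, a phospholipase gene, and Vav1, an exchange factor gene, were -2.15 and -2.003. For Pik3cg, a PI3 kinase subunit gene, and Pik3ap1, which encodes a PI3 kinase adaptor, they were -1.64 and -2.94. Genes of inhibitors fell as well: Ptpn6, which encodes the phosphatase SHP-1 (-2.28), Inpp5d, which encodes SHIP-1 and is a known target of miR-155 (-1.73), and Cbl, a ubiquitin ligase for the CSF-1 receptor (-0.52). Gab2, a docking protein gene, fell by 0.69 on the log2 scale. Syk (log2 fold change -1.74, edgeR adjusted p = 0.0605) and Sos1 (0.41, 0.0632) came next without passing. The JAK and STAT genes were not called. Jak1, Stat3, Stat5a and Stat5b overlapped between the groups. Jak2 did not, with 88.9 ± 9.35 against 141 ± 37.6 CPM (SD, n = 3 each). Its nearest tumours, MiRNC149 and Nf809, had 99.7 and 100 CPM, and its log2 fold change was -0.66 (edgeR adjusted p = 0.0920).

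Among 17 tested myeloid transcription factor genes (20 listed), 5 were called lower and none higher, with a median log2 fold change of -0.22. Spi1 had 4.70, 3.11 and 4.75 CPM in MiRNC149, MiRNC640 and MiRNC670 and 13.6, 9.52 and 24.2 CPM in Nf803, Nf809 and Nf827. It fell by 1.91 on the log2 scale (SE 0.39, edgeR adjusted p = 0.0304). That call was lost in limma voom (0.0544), with sex as a covariate (0.0534) and without any 1 tumour other than Nf809 (edgeR, 0.0543 to 0.108). The log2 fold change was -2.07 for Irf8, which directs monocyte and dendritic cell fate. It was -0.99 for the Ets factor gene Fli1 and -0.64 for Bhlhe40. Egr2 and Maf had positive values that were not called (0.58 and 0.56, edgeR adjusted p = 0.0628 and 0.0787). Of 5 tested receptor partners and other ligands (9 listed), Sdc1, which encodes a heparan sulphate proteoglycan known to bind interleukin-34, fell by 1.46 on the log2 scale. The lectin-like receptor gene Trem2 was not called (log2 fold change -1.64, edgeR adjusted p = 0.135). Il5 ran the other way, with 46, 20 and 15 reads in MiRNC149, MiRNC640 and MiRNC670 against 7, 0 and 6 in Nf803, Nf809 and Nf827, and was not called (2.59, edgeR adjusted p = 0.135). Without MiRNC640, MiRNC670, Nf803 or Nf827 none of the genes in these lists was called by edgeR, and without both MiRNC670 and Nf809 the signalling list had 6 called lower.

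**Figure D5:**
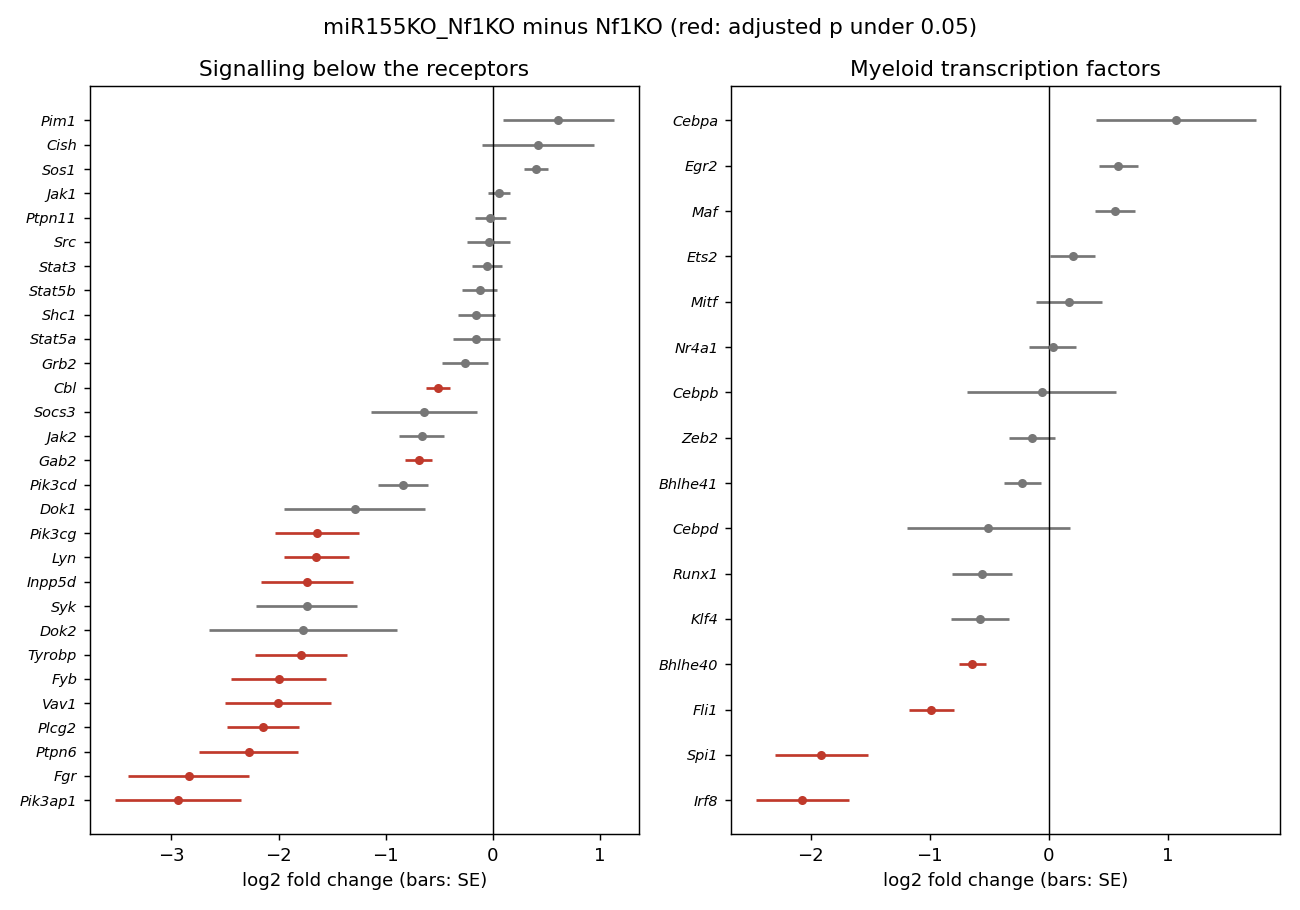
Log2 fold change with its SE (x axis), miR155KO_Nf1KO minus Nf1KO, of tested signalling genes and myeloid transcription factors, 1 of each list not shown; red marks an edgeR adjusted p under 0.05. The called genes shown all lie below 0, down to -2.94 for Pik3ap1 and -2.07 for Irf8.

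Other cell types that express these receptors or ligands also differed between the groups, and their part in the results was not tested. Dendritic cell markers summed to 60.5 to 107 CPM without miR-155 and 211 to 484 CPM with it (4 of 8 called lower), and monocyte markers to 35.8 to 73.3 against 179 to 264 CPM (1 of 4 tested, Ccr2). Eosinophils, which answer interleukin-5 through the common beta chain, had markers summing to 1.35 to 2.96 against 7.05 to 66.8 CPM (2 of 3 tested called lower). Fibroblast markers, from a cell type that makes CSF-1, summed to 4695 to 6043 against 9831 to 10516 CPM (3 of 6 called lower). Neuron markers, from a cell type that makes interleukin-34, summed to 5174 to 8142 against 1231 to 2399 CPM (7 of 8 called higher). For mast cells (77.2 to 87.3 against 50.2 to 101 CPM) and endothelial cells (113 to 244 against 157 to 213 CPM) the sums overlapped and none of the markers was called by edgeR.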

How the data were processed

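The authors deposited whole-number read counts per gene symbol, unscaled, with 1 column per tumour. The submitters' processing notes name HISAT2 2.0.5, featureCounts 1.5.2 and mm10. Not given in the sources used here were the annotation, the strandedness and the treatment of multi-mapped reads, which bear on Csf2rb and Csf2rb2. The labels' protocols name an RNeasy Plus Micro extraction and Nextera XT libraries.

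Counts were tested with edgeR 4.0.16 in R 4.3.3: filterByExpr (minimum count 10, total 15), TMM scaling and the quasi-likelihood test of the 2 groups, with p-values adjusted by Benjamini-Hochberg across all 15604 genes kept. Standard errors come from the F statistic. Log2 CPM for ratios and profiles used a prior count of 2, and ratios were compared by exact permutation of tumours. Libraries of a group differed by at least 23.2 times Poisson variance, so none was the same library deposited again. Genes were placed with GENCODE M21 on GRCm38, which mm10 names. Exon lengths are unions over transcripts. Coding sequences were aligned with Biopython 1.88, and intervals of shares came from scipy 1.17.1. The fit was tested on simulated data.

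The genes and lists were chosen with earlier results of these data known. Named genes are the 7 of the axis, the called genes of each list with the next 2 by p, the 3 nearest profiles of each gene without predicted genes, and markers with high levels where a cell type is described. A gene of the signalling list and one of the transcription factor list are counted but not reported here. S100a8, S100a9, Ngp, Ltf, Mpo, Mmp9, Hcst, Il3ra, the JAK and STAT genes and the ligands near 0 were named after their values were seen. Alternatives were DESeq2 1.42.0, limma 3.58.1 voom, robust estimation, other scalings, filters, thresholds and prior counts, sex as a covariate, tumours left out, C1q genes left out, and Csf2rb with Csf2rb2 summed.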

Additional observations from a re-analysis of the deposited data

How the results depend on the processing

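Csf1, Csf1r, Csf2ra, Csf2rb and Csf3r kept their direction under every other scaling, filter, test, covariate and subset of tumours tried. DESeq2 called 5 of the 7 genes lower, adding Csf1 (log2 fold change -0.52), Csf2ra (-1.01) and Csf2rb (-0.99), and it called 1473 of all genes lower and 1489 higher, 10 macrophage markers lower, and 1 signalling and 2 transcription factor genes higher. At an adjusted p under 0.1, 4 of the 7 were called, with Csf1 (-0.51) and Csf2ra (-1.005) added, along with 1319 of all genes lower, 1383 higher, 9 macrophage markers lower, and 1 signalling and 2 transcription factor genes higher. At 0.01 edgeR called 0 genes in any list and 0 of all genes (4163 at an unadjusted p under 0.05), so Csf1r (-1.68) and Csf3r (-1.19) were not called. Limma voom called 1 of the 7 and lost Csf3r (-1.15), and it called 605 of all genes lower and 810 higher. With sex as a covariate 1 of the 7 was called and Csf3r was lost (-1.004). In that fit Csf1r moved to -1.36, Csf2ra to -0.74, Csf2rb to -0.68 and Csf2rb2 to -0.047. Of all genes 502 were called lower and 534 higher there, with 7 macrophage markers and 3 transcription factors lower. Without MiRNC670 and Nf809, 1 of the 7 was called (Csf2ra, -1.25), Csf1r (-1.91) and Csf3r (-1.45) were lost, and Il34 turned to 0.044. Of all genes 510 were then called lower and 568 higher, with 6 signalling and 3 transcription factor genes lower. Summing Csf2rb and Csf2rb2 gave -0.74. The cause of these differences was not tested.

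With 1 tumour left out at a time, log2 fold changes ran from -2.002 to -1.27 for Csf1r, -1.24 to -0.81 for Csf2ra, -1.27 to -0.74 for Csf2rb, -0.79 to 0.0051 for Csf2rb2, -1.37 to -0.90 for Csf3r, -0.64 to -0.38 for Csf1 and -0.46 to -0.03 for Il34. The number called lower ran from 0 to 4 of the 7 genes, 0 to 1 partners, 0 to 16 signalling genes, 0 to 5 transcription factors and 0 to 9 macrophage markers. Transcription factors called higher ran from 0 to 1. Of all genes, 0 to 1059 were called lower and 0 to 1183 higher. edgeR called 0 genes without MiRNC670, Nf803 or Nf827, where 3240, 3335 and 3265 genes had an unadjusted p under 0.05. The most calls came without Nf809. The ratio of Csf3r to neutrophil markers ran from -1.96 to 0.53, turning without Nf827, and the other ratios kept their sign. No paired analysis was possible because the tumour numbers are not shared between the groups.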

Other observations

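S100a9, which encodes a subunit of calprotectin, was highest in the tumours that also held the most muscle transcripts. It had 815 reads in Nf809 and 195 in MiRNC670, against 5 to 141 in the other 4 tumours, whereas Mpo, which encodes myeloperoxidase, was high in Nf809 alone (327 reads, against 1 to 29 elsewhere). Hcst, which encodes the adaptor DAP10 and was too low to test, had 1, 4 and 3 reads in MiRNC149, MiRNC640 and MiRNC670 and 8, 16 and 35 in Nf803, Nf809 and Nf827. Il3ra, the alpha chain of the interleukin-3 receptor, was also too low to test, with 17 reads in the 3 tumours without miR-155 and 25 in the other 3.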
